A study of Mus musculus with 6 samples.

Results

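The Hox genes encode homeodomain transcription factors and lie in 4 genomic clusters, A to D. They were taken as the rows of the deposited count table whose symbol is Hox, a cluster letter from a to d and a paralog number, with antisense and other noncoding symbols left out. This gave 39 genes of the 44788 in the table: 11 in cluster A, 10 in B, 9 in C and 9 in D. All 39 are protein-coding genes in the GENCODE M21 annotation of GRCm38. Their level was compared in the endometrium of mice with adenomyosis, in which endometrial glands and stroma grow into the uterine muscle, with and without a GnRH agonist.

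All animals were females of the outbred ICR strain, born to 5 purchased mothers. Each of the 16 mice had been dosed orally in the first week, on days 2 to 5, with tamoxifen at 2.7 µmol/kg to induce adenomyosis, and 75 days later they were split at random into groups of 8. The agonist group received Decapetyl (the labels' spelling; triptorelin, a peptide analogue of gonadotropin-releasing hormone) into the abdomen at 1.5 µg per 100 g per day from day 3 to day 9 of estrus, and the group without agonist received the solvent alone. After 4 further weeks all were mated, and they were killed in the evening of day 4 of pregnancy. Histology and smooth muscle actin staining served for the diagnosis, after which endometrium was scraped off with a curved needle and total RNA was sequenced. Every animal carries the tamoxifen exposure, so there is no group without adenomyosis. Each group has 3 libraries. Which mouse a library came from is not stated, so the p-values measure only the spread between these libraries, which may be technical.

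Hox genes are read along each cluster in the order in which they lie, the low paralog numbers acting towards the head and the high ones towards the tail of the embryo. In the female reproductive tract the posterior genes divide the Müllerian duct: in the mouse, Hoxa9 marks the future oviduct, Hoxa10 the uterus, Hoxa11 the uterus and cervix, and Hoxa13 the cervix and upper vagina. Hoxa10 and Hoxa11 stay active in the adult uterus, where the mouse needs both for implantation and for the decidual response of the stroma. Hox proteins bind DNA with partners of the Pbx, Meis and Pknox families, and the silent part of a cluster is held down by Polycomb proteins against activators of the Trithorax type.

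Library totals ranged from 11720958 to 14104266 counts, and 62126 counts in all fell on Hox genes, between 0.0653% and 0.0934% of a library. At these depths a count of 0 allows up to 3 counts, or 0.204 to 0.276 CPM (counts scaled to the size of the library), a limit that covers counting error only. Levels are given in CPM after TMM scaling, written as agonist libraries 1, 2 and 3 and then no-agonist libraries 1, 2 and 3. The labelled tissue was checked on marker genes. All 8 epithelial and all 10 stromal markers were read in every library. Cyp11a1, Cyp19a1 and Fshr of the ovary and Pou5f1, Nanog and Zp3 of the embryo and oocyte were at 0 throughout. Star and Elf5 of the same lists were not. Star of the ovary had 18.1, 4.01 and 2.46 CPM with agonist and 2.94, 5.83 and 16.4 CPM without. Elf5 of the trophoblast had 0.562, 3.87 and 1.62 CPM with agonist and 0.226, 0.609 and 1.01 CPM without. All 8 smooth muscle markers were present too, with a summed level of 2968 to 11931 CPM in agonist libraries and 7643 to 19462 CPM in no-agonist libraries. In such bulk tissue, fewer cells of a type and less RNA per cell cannot be told apart. Agonist library 1 and no-agonist library 2 had the largest shares of the 18S ribosomal RNA row Rn18s-rs5, 1.94% and 3.31%, against 0.254% to 0.369% in the other libraries. The oviduct gene Ovgp1 had 173, 14.2 and 3.85 CPM with agonist and 1.21, 2.61 and 2.94 CPM without. It was thus highest in agonist library 1, and all agonist libraries lay above the others, as 14.5% of all genes did in either direction. The log2 fold change was 4.83 (edgeR quasi-likelihood, adjusted p = 0.345). DESeq2 called 1 of the 3 listed oviduct markers, against 2.38% of all genes. Foxj1 of the same list did not peak in agonist library 1, with 1.52 CPM there and 6.77 CPM in agonist library 3. Pax8, also listed, was present in all 6 libraries at 89.3 to 155 CPM, with 102 CPM in agonist library 1. Its level therefore cannot serve here as a sign of oviduct alone.

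Transcripts came mainly from the middle of cluster B and from the posterior part of clusters A and D. Levels of different genes were compared per kilobase of exon (CPM per kb). By this measure Hoxb6 led at 55.8 ± 25.0 CPM per kb in agonist libraries and 57.3 ± 6.75 in no-agonist libraries (SD, 3 libraries each). Hoxb8 followed at 52.2 ± 16.8 CPM per kb with agonist and 55.9 ± 12.4 without, and Hoxb7 at 51.3 ± 16.5 with agonist and 53.1 ± 0.857 without. Over all 6 libraries these neighbours of paralog groups 6 to 8 stood between the 92.6th and 93.3rd percentile of the 15184 tested genes with a known length. Next were the uterine genes Hoxa11 with a mean of 29.7 and Hoxa10 with 24.3 CPM per kb, and then Hoxd10 with 24.2, all between the 83.5th and 86.5th percentile. Hoxb4, Hoxd9, Hoxb5 and Hoxb3 filled the places to the tenth, at 23.1 to 11.7 CPM per kb. Each gene's range over the 6 libraries overlapped that of the next in the order. Ranges leave out that all genes were read in the same libraries. Within every library Hoxa11 stood above Hoxa10, for example, while Hoxb6 and Hoxb8 changed places between libraries. With length from the longest transcript the means were 29.7 for Hoxa11 and 31.0 for Hoxa10, the reverse order. The same 10 genes led when length was taken from the longest transcript or from exon bases shared with no other gene.

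**Figure D1:**
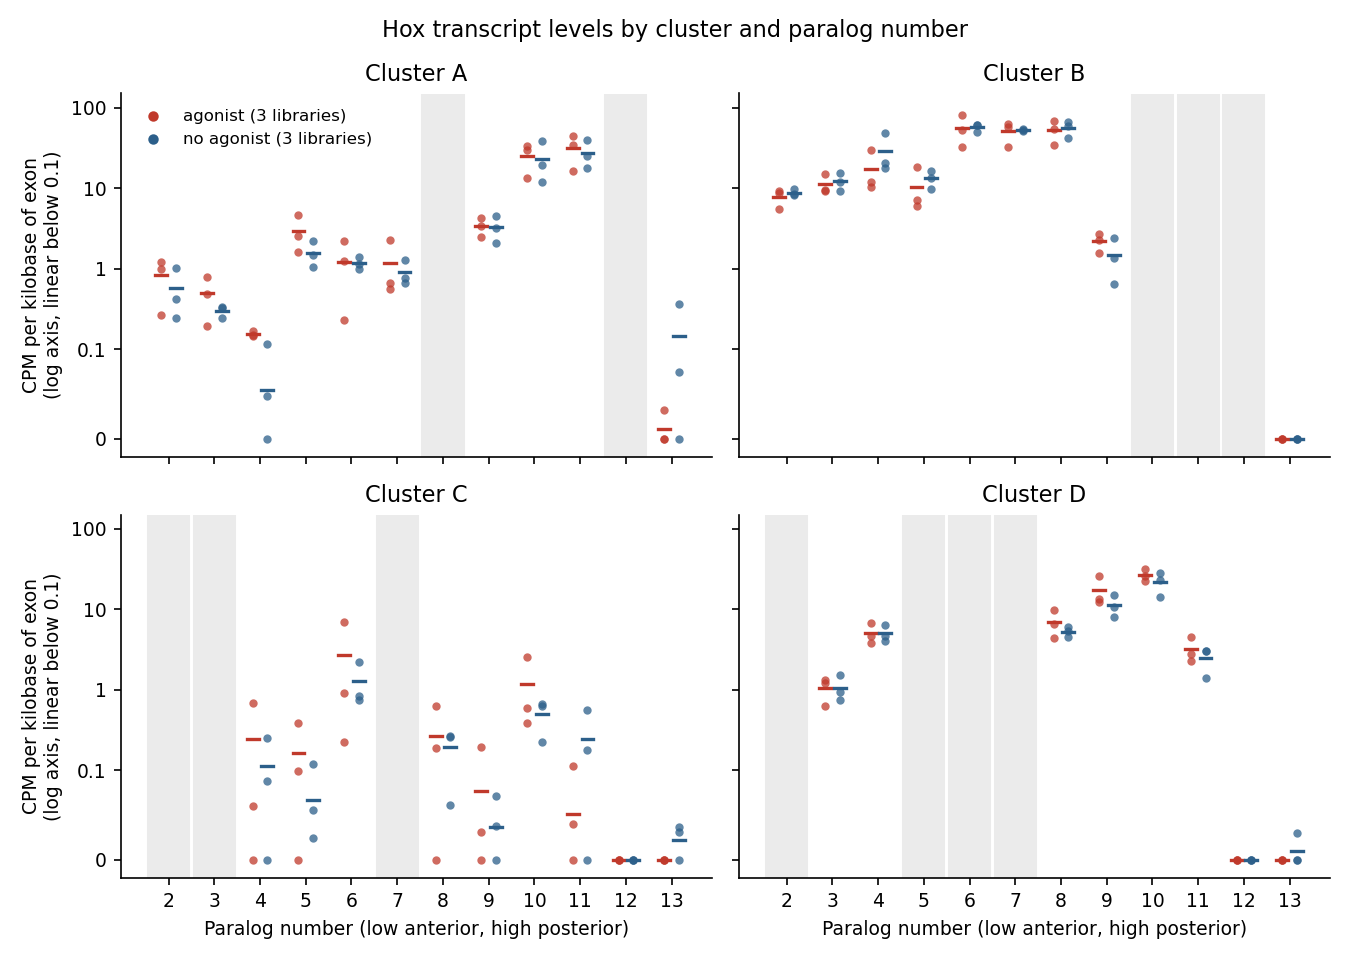
Level of each Hox gene in CPM per kilobase of exon (log axis, linear below 0.1) by paralog number from 2 to 13, in agonist (red, left of each pair) and no-agonist libraries (blue), 1 panel per cluster. Points are libraries, bars are group means, and grey marks paralog numbers with no gene in that cluster; cluster B peaks at paralogs 6 to 8, cluster A at 10 and 11, cluster D at 9 and 10, and cluster C stays low.

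Reads were few or absent at the posterior end of every cluster. The 4 genes of paralog group 13 together had 18 reads over the 6 libraries, 0.029% of all Hox reads, and Hoxc12 and Hoxd12 had none. Hoxa13, the cervical and vaginal member, had 1, 0 and 0 reads in agonist libraries, against 12, 0 and 2 reads in no-agonist libraries. Its neighbour Hoxa11, 11.9 kb away on the same strand of chromosome 6, had between 461 and 1512 reads in each library. In cluster D, Hoxd11 had 69 to 282 reads per library, while Hoxd12, 1.9 kb further, had none and Hoxd13 had 1 read in all. In cluster B, Hoxb13 lies 74.0 kb beyond Hoxb9 and had no reads, while Hoxb9 had 363 in all. The squamous keratins Krt5 and Krt14 of cervix and vagina were present, Krt5 at 376, 195 and 20.9 CPM with agonist and at 425, 99.6 and 117 CPM without. Krt13, another keratin of this list, had 25.3, 31.5 and 7.39 CPM with agonist and 87.5, 91.6 and 78.2 CPM without, so that all agonist libraries lay below the others (log2 fold change -2.0, edgeR quasi-likelihood adjusted p = 0.3). DESeq2 called 1 of the 4 listed genes, against 2.38% of all genes. The 4 listed squamous markers summed to 44.8 to 635 CPM with agonist and 240.2 to 656 CPM without.

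At the anterior end, Hoxd1 had no reads and Hoxb1, which patterns the hindbrain, had 9 reads over all libraries. Paralog group 2 and 3 genes were read mainly from cluster B: Hoxb2 had 27.1 ± 6.86 CPM with agonist and 30.8 ± 2.49 CPM without, and Hoxb3 47.9 ± 13.7 CPM with agonist and 51.8 ± 13.2 CPM without. By paralog group, the largest shares of all Hox reads were 19.4% for group 8, 15.6% for group 10, 14.1% for group 6, 10.2% for group 7 and 10.1% for group 11.

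The start regions of Hoxa11 and Hoxa13, on either side of this drop in cluster A, are shown because CG dinucleotides at gene starts are where DNA methylation and Polycomb recruitment are usually studied; neither was measured here. Each sequence holds the 250 bases before the transcript start from RefSeq (GRCm38.p6, chromosome 6, minus strand), with CG in capitals; Hoxa11 is chr6:52245811-52246060 and Hoxa13 is chr6:52260881-52261130.
Hoxa11: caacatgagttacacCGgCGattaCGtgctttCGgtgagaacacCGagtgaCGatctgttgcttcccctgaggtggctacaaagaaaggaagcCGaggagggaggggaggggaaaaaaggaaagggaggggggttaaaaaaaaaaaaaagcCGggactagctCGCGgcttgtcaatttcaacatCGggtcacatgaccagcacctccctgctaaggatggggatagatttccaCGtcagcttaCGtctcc
Hoxa13: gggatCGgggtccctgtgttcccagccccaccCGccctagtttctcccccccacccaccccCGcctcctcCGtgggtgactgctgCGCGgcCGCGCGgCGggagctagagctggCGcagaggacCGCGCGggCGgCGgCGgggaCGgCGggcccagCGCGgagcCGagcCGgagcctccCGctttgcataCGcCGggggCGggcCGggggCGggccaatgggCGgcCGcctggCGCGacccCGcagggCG
The motif CG, which reads the same on both strands, occurs 13 times in the Hoxa11 stretch and 35 times in that of Hoxa13. In the 300 bases that also take in the first 50 of the transcript, Hoxa13 has 45 and Hoxd13, likewise near silent, 37, against 15 for Hoxa11 and 12 for Hoxa10. The count did not follow expression over the other genes: Hoxd12, with no reads, has 13 and Hoxb1 10, while the expressed Hoxd10 and Hoxd9 have 22 and 20. RefSeq promoters matched 22 of the 39 Hox genes, with a median of 13.5 CG in 300 bases, against a median of 7.0 over all 27025 promoters, of which 94.2% hold at least 1.

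By cluster, B gave 61.5% of Hox reads, A 22.3%, D 15.2% and C 0.998%. The summed level of cluster A was 124, 220 and 225 CPM in agonist libraries, against 251, 99.4 and 153 CPM in no-agonist libraries. That of cluster B was 659, 473 and 311 CPM with agonist, against 449, 527 and 642 CPM without. For cluster D the sums were 106, 165 and 141 CPM with agonist and 129, 83.0 and 112 CPM without. Cluster C reached 27.0 CPM in agonist library 1, with 1.29 and 4.69 CPM in the other agonist libraries, against 5.59, 2.78 and 8.91 CPM without agonist. In each cluster the ranges of the groups overlapped. All 39 genes together came to 819 ± 122 CPM with agonist and 821 ± 103 CPM without (SD, 3 libraries each).

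The comparison of agonist with no agonist asked whether the treatment was followed by other Hox levels at the time of implantation. No Hox gene differed between the groups beyond the spread of the libraries. Of the 39 genes, 24 had enough reads to be tested (at least 78 reads in all), 11 had reads but too few (at most 49), and Hoxb13, Hoxc12, Hoxd1 and Hoxd12 had none. None of the 24 passed an adjusted p of 0.05 in edgeR's quasi-likelihood test, which called 0% of all 16581 genes tested, and none had an unadjusted p under 0.05, a level that 9.26% of all genes reached. DESeq2 and edgeR's likelihood ratio test, which called 2.38% and 1.62% of all genes, called no Hox gene either. At an unadjusted p under 0.05 the count of Hox genes was likewise 0 by DESeq2, by the likelihood ratio test and by limma-voom, levels reached by 10.7%, 9.4% and 9.22% of all genes. The adjusted p of the Hox genes ran between 0.655 and 0.998. In none of the 24 did all libraries of a group lie on the same side of the other group, which was so for 14.5% of all genes tested. Among the genes too low to test this held for Hoxa4, at 3, 4 and 3 reads with agonist and 1, 0 and 2 reads without, all close to the limit of detection.

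The fitted log2 fold changes, agonist over no agonist, lay between -0.72 for Hoxb4 and 1.20 for Hoxc10, with a median of 0.16 over the 24 genes and of 0.02 over all genes tested. They were above 0 for 16 of the 24, against 52.2% of all genes. The estimates were positive for 8 of 8 genes in cluster A, 1 of 8 in B, 2 of 2 in C and 5 of 6 in D. By position, they were positive for 2 of 5 anterior genes (paralogs 1 to 3), 6 of 11 central genes (4 to 8) and 8 of 8 posterior genes (9 to 13). These signs are descriptions, and several counts changed when a single library was left out. Without no-agonist library 2, cluster A had 4 of 8 and the posterior genes 5 of 8 above 0. Without agonist library 1, cluster C had 0 of 2 and the central genes 3 of 11. Cluster D kept 4 to 6 of 6 above 0 whichever library was left out. Cluster B had 5 of 8 above 0 without agonist library 3 and 4 of 8 without no-agonist library 3. Scaling by library totals alone moved the median of all genes to 0.18 and also put 5 of 8 cluster B genes above 0, and limma-voom put 3 of 11 central genes above 0. Half-widths of the 95% intervals had a median of 0.99 on the log2 scale, and for 8 of the 24 genes the interval stayed within a doubling or halving.

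**Figure D2:**
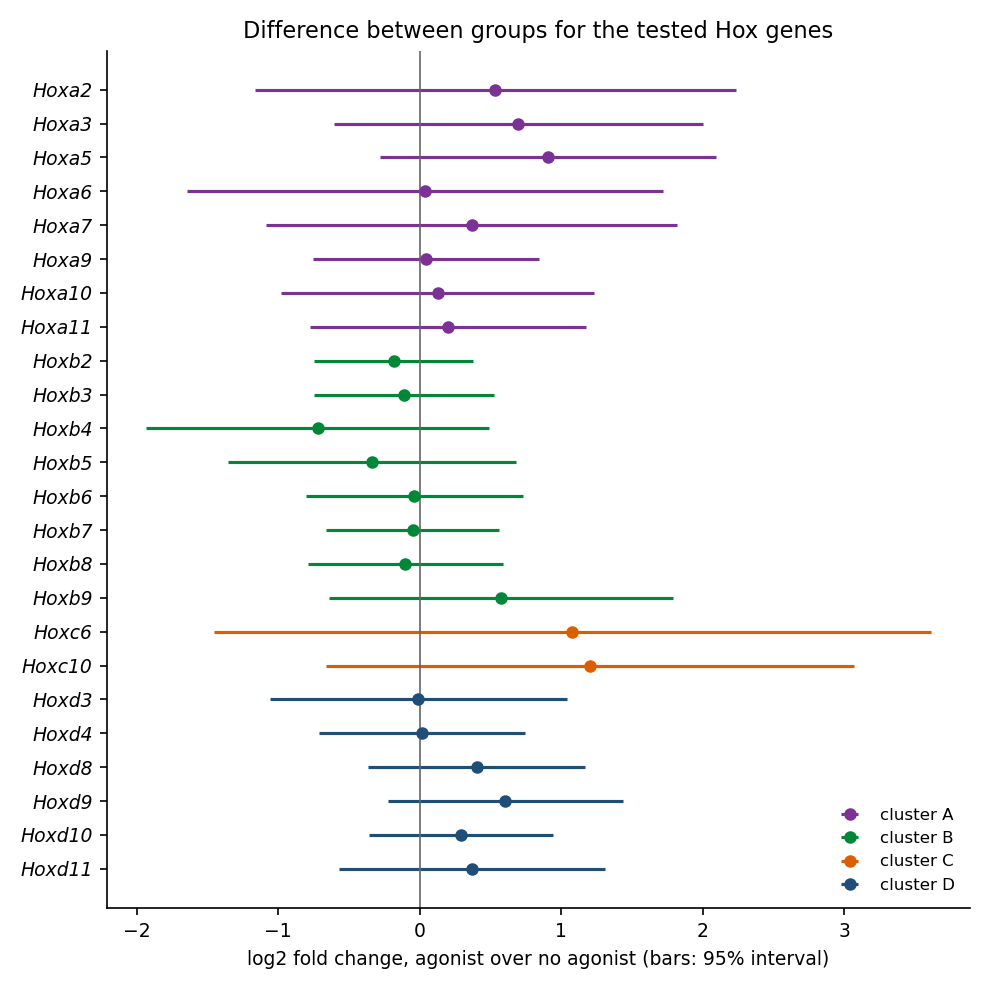
Log2 fold change, agonist over no agonist, of the 24 tested Hox genes in cluster order (points, coloured by cluster) with 95% intervals from edgeR's quasi-likelihood fit. Every interval crosses 0, and the widest belong to Hoxc6 and Hoxc10.

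The uterine and neighbouring posterior genes of cluster A varied more within groups than between them. Hoxa10 (chromosome 6, 52231197 to 52240854, minus strand) had 43.9, 96.2 and 109 CPM in agonist libraries, against 125, 39.3 and 63.9 CPM in no-agonist libraries. Agonist library 1 and no-agonist library 2 were the low ones, and the groups overlapped over most of their range. The log2 fold change was 0.13 with a standard error of 0.48 and a 95% interval of -0.98 to 1.23 (edgeR quasi-likelihood, adjusted p = 0.968). Hoxa11 (chromosome 6, 52242106 to 52245810, minus strand) had 37.0, 103 and 78.2 CPM with agonist, against 91.2, 40.6 and 58.0 CPM without. The same libraries were lowest, and the log2 fold change was 0.20 with a standard error of 0.42 and an interval of -0.78 to 1.17 (edgeR quasi-likelihood, adjusted p = 0.929). Hoxa9, the oviductal member, had 19.2, 13.9 and 23.8 CPM with agonist, against 25.2, 11.7 and 18.1 CPM without, a log2 fold change of 0.05. Reads of Hoxa11 carry a limit of annotation, since 35.0% of its exon bases also belong to the antisense RNA Hoxa11os on the other strand, and the strand setting of the counting is not given in the sources used here.

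In cluster B the leading genes differed little between groups. Hoxb8, a central gene used in the spinal cord and in blood progenitors of the mouse, had 179, 143 and 90.7 CPM in agonist libraries, against 111, 156 and 175 CPM in no-agonist libraries. Hoxb6 had 161, 105 and 63.1 CPM with agonist, against 97.3, 121 and 119 CPM without. For both genes agonist library 1 was the highest and agonist library 3 the lowest of all 6, so that the agonist libraries enclosed the others. Hoxb7 had 89.4, 97.9 and 50.2 CPM with agonist, against 82.8, 80.4 and 82.6 CPM without, where the no-agonist libraries nearly coincided. The log2 fold changes of Hoxb6, Hoxb7 and Hoxb8 were -0.04, -0.05 and -0.10, with intervals of -0.80 to 0.73, -0.66 to 0.56 and -0.79 to 0.59.

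Hoxb4 and Hoxb5 were less even. Hoxb4, known for its effect on blood stem cells, had 77.1, 30.8 and 26.3 CPM in agonist libraries, against 45.4, 52.2 and 124 CPM in no-agonist libraries. No-agonist library 3 stood above all others and agonist library 1 came second. The log2 fold change was -0.72 with a standard error of 0.52 (edgeR quasi-likelihood, adjusted p = 0.738). Hoxb5 had 51.1, 19.7 and 16.8 CPM with agonist, against 27.6, 37.5 and 45.5 CPM without, a log2 fold change of -0.34. Without agonist library 1, the log2 fold changes were -1.36 for Hoxb4 and -1.0 for Hoxb5 (edgeR quasi-likelihood, adjusted p = 0.347 and 0.267), and still neither passed.

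Hoxb8 also carries the best known microRNA target of the clusters. The miR-196 genes lie inside clusters A, B and C, and in mouse embryos miR-196a directs cleavage of Hoxb8 mRNA at a site of almost complete pairing in the 3′ UTR. That site is shown beside the microRNAs because Hoxb8 had more reads than any other Hox gene here. In the mature microRNAs (RefSeq, GRCm38.p6) capitals mark the seed; in the target, bases 418 to 439 of the 845-base 3′ UTR in GENCODE M21 (chromosome 11, plus strand), capitals mark bases in Watson-Crick pairs with miR-196a and the lower-case letter a G-U pair.
mmu-miR-196a-5p: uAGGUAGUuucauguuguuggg
mmu-miR-196b-5p: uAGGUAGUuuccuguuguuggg
Hoxb8 site: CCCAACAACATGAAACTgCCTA
Of the 22 bases of miR-196a, 21 formed Watson-Crick pairs and 1 a G-U pair with the site, and for miR-196b these numbers were 20 and 1 with 1 base unpaired. Because of the G-U pair, Hoxb8 lacks the exact match to the seed, actacct, on its sense strand. That match was found in the 3′ UTRs of 9 of the 39 Hox genes, among them Hoxa5, Hoxa7, Hoxa9, Hoxb6 and Hoxb7, and in 6.8% of 21153 genes with an annotated 3′ UTR. The match acagggt of miR-10, whose genes lie in clusters B and D, was found in 4 of the 39 Hox genes and in 12.9% of all genes. Mature microRNAs were not measured. Reads on the rows Mir10a, Mir10b, Mir196a-1 and Mir196b, which count fragments over the precursor, stayed at or below 2.11 CPM, and Mir196a-2 had none.

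The genes of cluster A and D with the smallest p-values were also within the spread. Hoxa5, a regulator of lung and mammary development, had 8.74, 3.06 and 4.85 CPM in agonist libraries, against 1.96, 2.78 and 4.13 CPM in no-agonist libraries. Agonist library 2 lay inside the range of the other group. The log2 fold change was 0.91 with a standard error of 0.51 and an interval of -0.28 to 2.09, and the unadjusted p of 0.116 was the smallest of all Hox genes (edgeR quasi-likelihood, adjusted p = 0.655). Without agonist library 1 it was 0.43. Hoxa3, which patterns the pharyngeal arches, had 4.81, 1.16 and 2.92 CPM with agonist and 1.96, 1.48 and 2.02 CPM without, a log2 fold change of 0.70 that came to 0.17 without agonist library 1. Hoxa2, Hoxa6 and Hoxa7 stayed between 0.204 and 6.50 CPM, with log2 fold changes of 0.54, 0.04 and 0.37.

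In cluster D, Hoxd9, Hoxd10 and Hoxd11 act in part redundantly with the uterine genes of cluster A in mouse mutants. Hoxd9 had 26.6, 55.3 and 28.4 CPM in agonist libraries, against 32.1, 23.1 and 17.3 CPM in no-agonist libraries. Agonist library 2 was the highest by far, and without it the estimate fell to 0.19, against 0.61 with all libraries (interval -0.22 to 1.44; edgeR quasi-likelihood, adjusted p = 0.666). Hoxd10 had 41.0, 46.5 and 57.7 CPM with agonist, against 42.3, 25.6 and 50.7 CPM without, a log2 fold change of 0.29, and of 0.063 without no-agonist library 2. Hoxd8 had 12.1, 27.0 and 18.3 CPM with agonist, against 16.5, 12.4 and 14.6 CPM without, a log2 fold change of 0.40, and of 0.0698 without agonist library 2. Hoxd11 averaged 13.6 ± 4.95 CPM with agonist and 10.5 ± 3.90 CPM without (SD, 3 libraries each). Hoxd3 and Hoxd4 share 62.8% and 52.3% of their exon bases with other genes, each other among them, so their reads cannot be assigned cleanly. Their log2 fold changes were -0.01 and 0.02.

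Cluster C was low outside a single library. Hoxc10, a lumbar patterning gene, had 4.89, 0.747 and 1.15 CPM in agonist libraries, against 1.28, 0.435 and 1.19 CPM in no-agonist libraries. Only agonist library 1 stood above the no-agonist range, and without it the log2 fold change was -0.03, against 1.20 with all libraries (interval -0.66 to 3.07; edgeR quasi-likelihood, adjusted p = 0.711). Hoxc6, a thoracic gene, had 16.8, 0.543 and 2.23 CPM with agonist and 2.04, 1.83 and 5.42 CPM without, a 31.0-fold range between agonist libraries 1 and 2. The other 7 genes of the cluster had 0 to 49 reads each over all libraries, and Hoxc4, Hoxc5, Hoxc8, Hoxc9 and Hoxc11 had none in agonist library 2.

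Libraries of the same group differed from each other. Of the 24 tested genes, 9, 6 and 3 were highest in agonist libraries 1, 2 and 3, and 3, 1 and 2 in the no-agonist libraries. Lowest were 3, 5 and 6 in the agonist libraries and 1, 7 and 2 in the no-agonist libraries. These shares were not counted over all genes, so they cannot be called particular to Hox genes. Within their groups, Hoxa10 and Hoxa11 were lowest in agonist library 1 and no-agonist library 2. So was the antisense Hoxa11os, with 20.9, 69.5 and 47.9 CPM with agonist and 53.0, 23.8 and 29.2 CPM without. Of the 10 stromal markers, some were low there too and others were not. The surface gene Thy1 had low values there, at 38.3, 229 and 174 CPM with agonist and 144, 66.1 and 59.0 CPM without, as were the stromal regulator Hand2, at 13.4, 44.3 and 35.7 CPM with agonist and 35.4, 19.4 and 14.6 CPM without, and Pdgfra. For these stromal genes no-agonist library 3 was about as low. Vim, by contrast, was highest of all in agonist library 1, at 592, 478 and 392.3 CPM with agonist and 414, 233 and 299 CPM without. Dcn and Lum were higher in agonist library 1 than in agonist library 2. In no-agonist library 2, however, Vim, Dcn and Lum were each at their lowest, Dcn at 480 and Lum at 165 CPM. The 10 stromal markers summed did not follow the pattern, at 4904, 5673 and 4427 CPM with agonist and 7094, 4429 and 5157 CPM without. The libraries in question are those with the largest ribosomal RNA shares. The part of stromal content and RNA composition in the Hoxa10 and Hoxa11 levels was not tested; without both libraries the log2 fold changes were 0.13 for Hoxa10 and 0.29 for Hoxa11 (edgeR quasi-likelihood, adjusted p = 0.949 and 0.827), and 0 of 24 Hox genes passed.

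**Figure D3:**
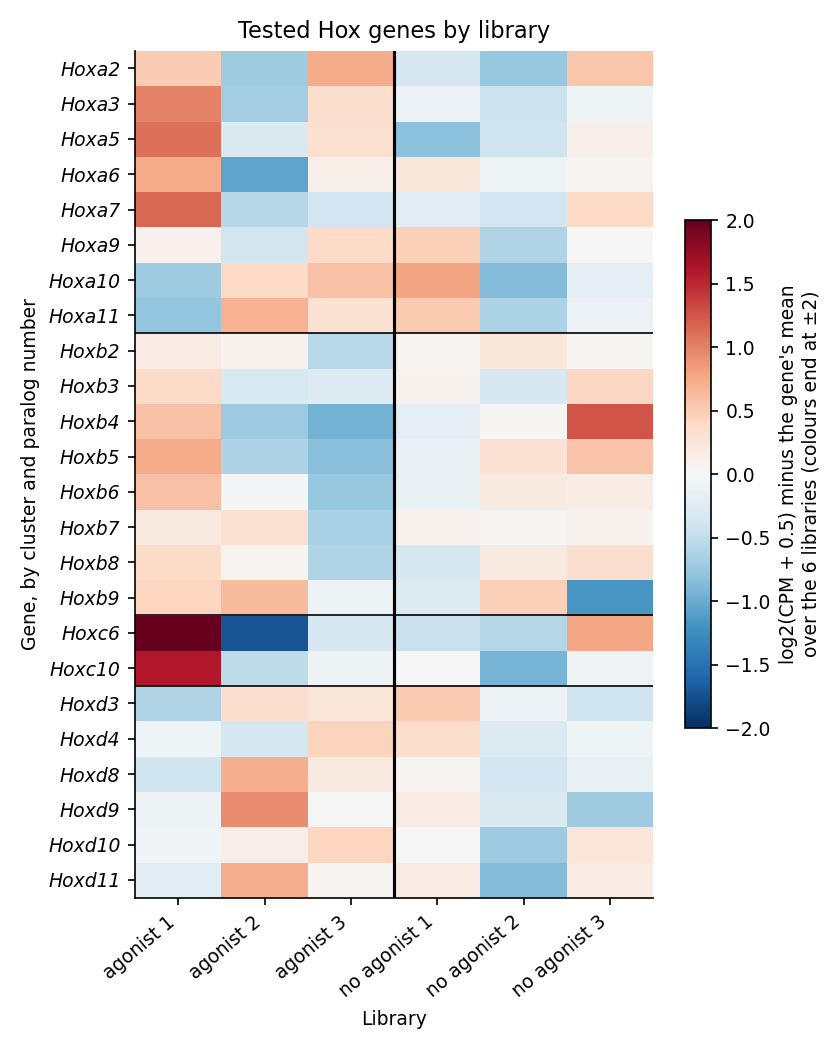
Level of the 24 tested Hox genes in each library as log2(CPM + 0.5) minus the gene's mean over the 6 libraries, agonist libraries left of the black line. Agonist library 1 is high for Hoxc6, Hoxc10 and Hoxa2 to Hoxa7 and low for Hoxa10 and Hoxa11, and no-agonist library 2 is low for Hoxa10, Hoxa11, Hoxd10 and Hoxd11.

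Hoxb4, Hoxb5 and Hoxc6 were highest in agonist library 1 and no-agonist library 3. The 8 smooth muscle markers summed to 11931, 2968 and 3625 CPM in agonist libraries, against 8103, 7643 and 19462 CPM in no-agonist libraries, so that the same pair was highest; Myh11, the smooth muscle myosin, had 2586, 322 and 604 CPM with agonist and 1574, 1433 and 3321 CPM without. All 8 muscle markers had negative log2 fold changes, with a median of -0.92, and none passed. All 8 epithelial markers were likewise negative, with a median of -0.63. Of these, 4 were at an unadjusted p under 0.05 in edgeR's quasi-likelihood test, against 5.09% of all genes in this direction. All 6 endothelial markers were positive, with a median of 0.60 and 2 at that level, against 4.17% of all genes in this direction. None of these was called by edgeR's quasi-likelihood test. DESeq2, which called 2.38% of all genes, called 2 of the epithelial genes and none of the endothelial ones. Of the 5 fat and mesothelium markers, 4 were highest in agonist library 1, where Hoxc6 and Hoxc10 peaked, and Wt1 was highest in agonist library 3. They summed to 171, 33.6 and 144 CPM with agonist and 133, 24.5 and 80.3 CPM without, and the fat hormone Adipoq had no reads in agonist library 2 or no-agonist library 2. The part of muscle, epithelial, endothelial and fat content in the Hox levels was not tested.

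**Figure D4:**
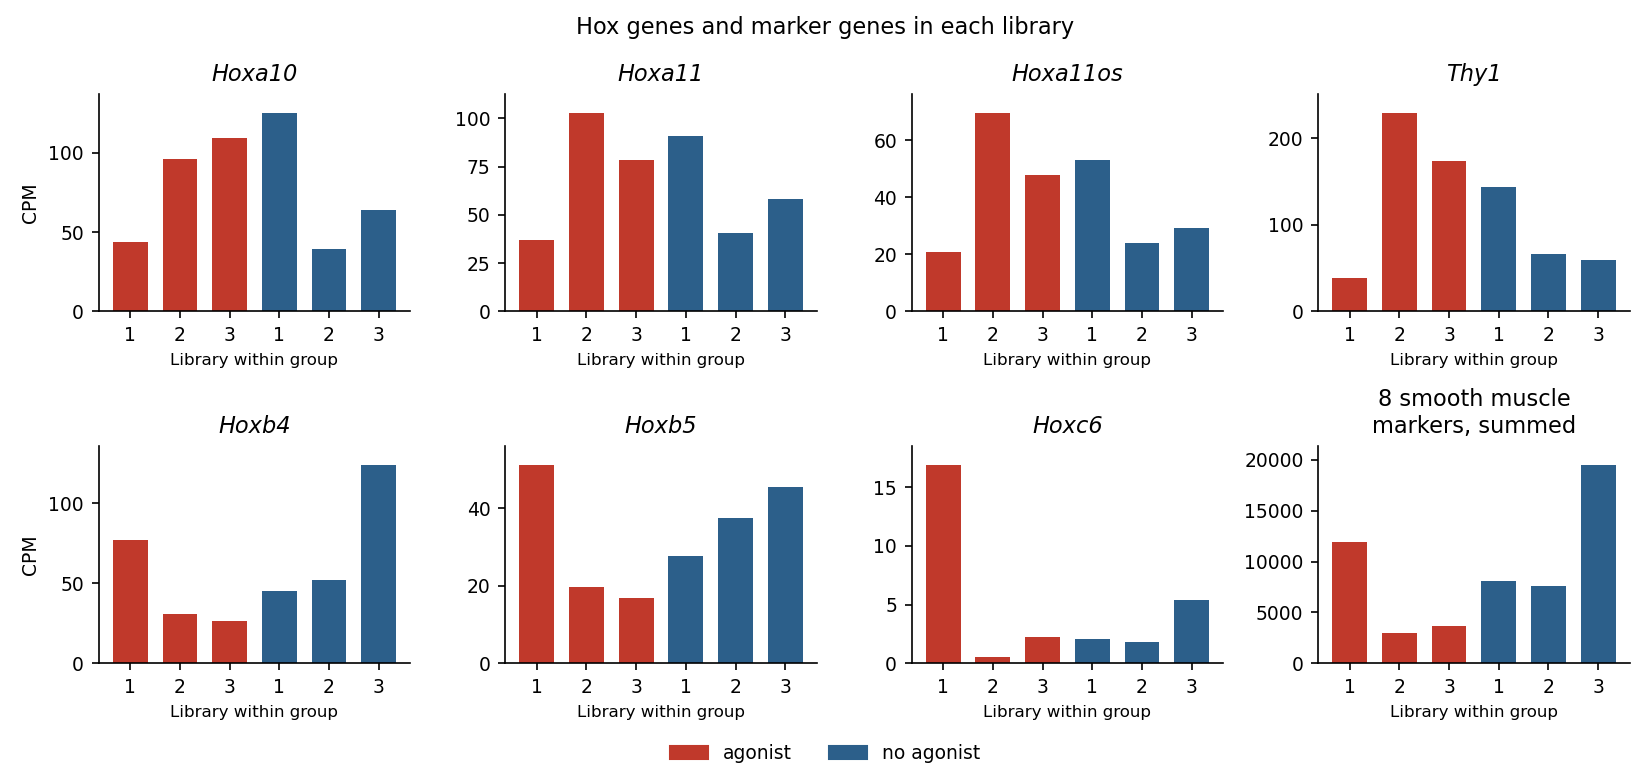
CPM in each library (agonist red, no agonist blue, numbered within group; all axes start at 0) of Hoxa10, Hoxa11, Hoxa11os and stromal Thy1 in the upper row, and of Hoxb4, Hoxb5, Hoxc6 and the sum of 8 smooth muscle markers in the lower row. The upper genes are lowest or nearly so in agonist library 1 and no-agonist library 2. Other stromal markers such as Vim, not shown, are not low in agonist library 1, though Vim is lowest in no-agonist library 2. The lower panels are highest in agonist library 1 and no-agonist library 3.

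The DNA-binding partners of Hox proteins were all expressed. All 9 Pbx, Meis and Pknox genes were tested, 4 with a positive and 5 with a negative log2 fold change and a median of -0.05, and none was called. Pknox2 had 18.6, 21.7 and 20.9 CPM in agonist libraries, against 41.2, 25.6 and 26.5 CPM in no-agonist libraries, a log2 fold change of -0.61 with an unadjusted p of 0.0408 (edgeR quasi-likelihood, adjusted p = 0.516). That is 1 of 9 genes below an unadjusted p of 0.05 in this direction, against 5.09% of all genes tested. Meis3, Pknox1 and Pbx4 had log2 fold changes of -0.52, 0.48 and 0.67.

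Of the 22 Polycomb genes, 14 had positive and 8 negative log2 fold changes, with a median of 0.21, and none was called. Cbx2, a Polycomb subunit whose loss shifts Hox boundaries in the mouse, had 19.7, 20.4 and 16.2 CPM in agonist libraries, against 14.9, 9.40 and 6.61 CPM in no-agonist libraries. The groups did not overlap, and the log2 fold change was 0.86 (edgeR quasi-likelihood, unadjusted p = 0.0358, adjusted p = 0.505). It was 1 of 22 genes at an unadjusted p under 0.05 in this direction, against 4.17% of all genes. Ezh2, the histone methyltransferase, had 34.8, 55.9 and 30.4 CPM with agonist and 27.5, 29.5 and 16.9 CPM without, with an adjusted p of 0.549 in edgeR's quasi-likelihood test. Cbx6 and Pcgf2 had log2 fold changes of 0.47 and 0.36.

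Of the 11 genes listed as Trithorax-type, 8 had positive and 3 negative log2 fold changes, with a median of 0.05, and none was called. The list takes in Ctcf, which is not itself a Trithorax-type activator and whose value is the median. Psip1, the chromatin tether of the activator Kmt2a, had 27.5, 37.6 and 42.3 CPM in agonist libraries, against 18.3, 20.6 and 22.2 CPM in no-agonist libraries. All agonist libraries lay above the others, with a log2 fold change of 0.81 and an interval of 0.28 to 1.35 (edgeR quasi-likelihood, unadjusted p = 0.00797, adjusted p = 0.34). It was the only gene of the 11 at an unadjusted p under 0.05, that is 1 of 11 against 9.26% of all genes in either direction. Kmt2a itself had 102 ± 28.8 CPM with agonist and 79.3 ± 2.48 CPM without, and the demethylase Kdm6b 63.7 ± 13.1 CPM with agonist and 48.8 ± 3.49 CPM without.

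Retinoic acid and steroid receptors are known regulators of Hox genes. Of 15 such upstream genes 11 were tested, 6 with positive and 5 with negative log2 fold changes and a median of 0.12, and none was called; Cdx1, Cdx2 and Cdx4 had no reads. Cyp26a1, which degrades retinoic acid and is induced by progesterone in the uterine epithelium of the mouse, had 3.45, 4.69 and 5.77 CPM in agonist libraries, against 1.21, 0.0870 and 0.184 CPM in no-agonist libraries. The groups did not overlap, and no-agonist libraries 2 and 3 were below the limit that a count of 0 allows. The log2 fold change was 3.17 with an interval of 1.25 to 5.09 (edgeR quasi-likelihood, unadjusted p = 0.00543, adjusted p = 0.329), and DESeq2 called it (adjusted p = 0.0117), the only gene of the regulator lists that it called. Cyp26b1, the related enzyme, had 18.9, 4.07 and 5.54 CPM with agonist and 3.62, 2.26 and 2.48 CPM without, a log2 fold change of 1.76 (edgeR quasi-likelihood, unadjusted p = 0.024, adjusted p = 0.456). These were 2 of 11 genes at an unadjusted p under 0.05 in this direction, against 4.17% of all genes. Aldh1a2, which makes retinoic acid in stroma, had 16.0, 94.4 and 63.7 CPM with agonist and 140, 125 and 36.3 CPM without, and Vdr had a log2 fold change of 0.99. The oviduct gene Ovgp1 was also highest in agonist library 1, where Cyp26b1 peaked. Like Cyp26b1, it was higher in all agonist libraries than in any no-agonist library. Foxj1 and Pax8 of the oviduct list were not highest in agonist library 1, but Pax8 was present at 89.3 CPM or more in every library. The part of oviduct content was not tested.

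Of 8 genes placed downstream of Hoxa10 in the uterus 7 were tested, 3 with positive and 4 with negative log2 fold changes and a median of -0.30, and none was called. Ptger4, a prostaglandin E receptor of the uterine stroma, had 43.8, 49.2 and 56.7 CPM in agonist libraries, against 62.4, 113 and 105 CPM in no-agonist libraries. All agonist libraries lay below the others, with a log2 fold change of -0.91 and an interval of -1.51 to -0.30 (edgeR quasi-likelihood, unadjusted p = 0.00868, adjusted p = 0.353). It was 1 of 7 genes at an unadjusted p under 0.05 in this direction, against 5.09% of all genes. It was also the only 1 of the 7 whose groups did not overlap, which held for 14.5% of all genes in either direction. The integrin subunit gene Itgb3 had 43.1 ± 17.5 CPM with agonist and 53.9 ± 9.05 CPM without. Cdkn1c and Ccnd3, regulators of the cell cycle in decidual cells, had log2 fold changes of 0.73 and -0.30, and Igfbp1 was near 0.

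Among 16 noncoding RNAs of the clusters, 9 symbols were in the table and 2 could be tested. Hoxa11os, read from the opposite strand of Hoxa11, had a log2 fold change of 0.38 (edgeR quasi-likelihood, adjusted p = 0.864), and Hoxb5os one of 0.02. Hotair, the RNA of the posterior part of cluster C, reached at most 0.377 CPM. In all, 16 of the 39 Hox genes share exon bases with another annotated gene, 9 on the same strand and 10 on the opposite one, among them Hoxb3 with 52.9%, Hoxb2 with 27.3% and Hoxa3 with 27.1% of their bases. Reads on bases shared on the same strand cannot be assigned cleanly. For bases shared with the opposite strand this depends on the strand setting, which is not known. Hoxb3os, the annotated partner of Hoxb2 and Hoxb3, has no counts of its own here.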

How the data were processed

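The authors deposited whole-number read counts per gene symbol, 1 column per library, and all 6 columns were mapped to samples by their labels. Per the labels' protocols, only RNA with an integrity number above 8 was used, the kit was Ion Total RNA-Seq, and single-end reads came from Proton sequencers. HTSeq 0.6.1 and the build mm10 (GRCm38) are named in the submitters' processing notes. For the aligner, annotation, strand setting and filters, nothing is given in the sources used here.

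Counts were filtered with filterByExpr, scaled by TMM and compared, agonist over no agonist, with the quasi-likelihood F-test of edgeR 4.0.16 (R 4.3.3, limma 3.58.1) with no covariate. Calls were made at an adjusted p under 0.05 (Benjamini-Hochberg, all 16581 genes tested). Intervals cover 95%. DESeq2 1.42.0, edgeR's likelihood ratio test, limma-voom, other scalings and filters, and leaving out libraries were alternatives.

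Exon lengths and positions came from GENCODE M21 (GRCm38), which held 30997 of the 44788 symbols, and promoters and microRNAs from RefSeq tables. The annotation behind the counts may differ.

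The genes and lists were chosen with earlier results of these data known. Values per library are given for Hoxa9, Hoxa10, Hoxa11 and Hoxa13, the 6 genes with the highest level per length and the 6 with the smallest p. From each list of partners, regulators, upstream and downstream genes, up to 4 genes with the smallest p are named. Some of these have only a mean or a log2 fold change. Genes of the marker lists were not named by this rule. Hoxb5, Hoxc6 and the other members and markers named beside these were chosen after their values were seen. No protein sequences were used here, and values of some genes are not reported here.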

Additional observations from a re-analysis of the deposited data

How the results depend on the processing

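No Hox gene was called under any alternative run. No paired analysis was possible because the labels give the groups different library numbers and name no shared litter, batch or day. Over all genes, the call count was 0, against 36 with no filter on low counts, 394 with DESeq2, 268 with the likelihood ratio test, 0 to 1 with a library left out, and 7 without agonist library 1 and no-agonist library 2 together, an alternative chosen after seeing the data because these 2 had the most ribosomal RNA. The number of genes of the other lists called was 0, and 1 with DESeq2. At an unadjusted p under 0.05 there were 0 Hox genes, against 1 with no filter (Hoxa13, 12 of its 15 reads in no-agonist library 1), 0 to 2 with a library left out (Hoxb4 and Hoxb5 without agonist library 1), and 2 without both libraries. The median log2 fold change of the Hox genes was 0.163, and -0.0982 without both libraries; with 1 library left out it ran between -0.00306 (without no-agonist library 2) and 0.344 (without no-agonist library 1), with 0.067 without agonist library 1. It was 0.314 with library totals alone and 0.0859 with limma-voom. The signs that changed are as follows; the cause was not tested. With library totals alone Hoxb6, Hoxb8 and Hoxb7 came to 0.117, 0.0645 and 0.103, and with upper-quartile factors Hoxb6 to 0.0118. Without both libraries Hoxa9 came to -0.19 and Hoxc10 to -0.38. With a library left out the log2 fold changes ran between -0.19 and 0.34 for Hoxa9, -0.18 and 0.69 for Hoxa10, -0.14 and 0.56 for Hoxa11, -0.41 and 0.24 for Hoxb6, -0.32 and 0.13 for Hoxb8, -0.23 and 0.20 for Hoxb7, and -0.0283 and 1.62 for Hoxc10. At an unadjusted p under 0.05, 691 genes were higher and 844 lower, against 1192 and 520 with library totals alone and 826 and 700 with upper-quartile factors. With 3 libraries a group and a common biological coefficient of variation of 0.375, the intervals of most Hox genes still allow changes of 2-fold, and the 15 genes not tested were too shallow to compare.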
